A study of Mus musculus with 12 samples.

Results

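The respiratory chain subunits are the proteins that build complexes I to IV of the mitochondrial electron transport chain and the ATP synthase, complex V. Members were taken by symbol: protein-coding genes starting with Ndufa, Ndufb, Ndufc, Ndufs or Ndufv (assembly factors named Ndufaf left out), Sdha to Sdhd, Uqcr, Cox4i, Cox5 to Cox8, Atp5, mt-Nd, mt-Co, mt-Cytb and mt-Atp. This gave 103 of the 56748 genes in the count table, 90 in the nuclear genome and 13 in the mitochondrial genome. The nuclear members were 38 of complex I, 4 of complex II, 8 of complex III, 21 of complex IV (Ndufa4 and Ndufa4l2 counted here) and 19 of complex V. The mitochondrial members were 7 of complex I, 1 of complex III, 3 of complex IV and 2 of complex V. After a filter on low counts 96 members were tested, 83 nuclear and all 13 mitochondrial.

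Complexes I to IV pass electrons from NADH and succinate to oxygen. Complexes I, III and IV pump protons across the inner mitochondrial membrane, and complex V makes ATP from the return of these protons. All of the complexes except complex II join subunits made from nuclear genes in the cytosol with core subunits made inside the organelle from mitochondrial DNA, so both genomes have to be expressed to build them. Macrophages polarized with IL4 are known for relying on oxidative metabolism, whereas inflammatory macrophages lean on glycolysis.

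Bulk RNA sequencing was done on M2-like bone marrow–derived macrophages (BMDM) of C57BL/6J mice, with 3 libraries for each of 4 conditions. The sources used here do not say whether the 3 libraries of a condition came from separate mice or cultures, so p-values measure the spread between these libraries, which may be technical. All BMDM had been grown with M-CSF at 20 ng/mL and given IL4 at 10 ng/mL for 48 hours, and were then kept for 72 hours in plain medium (untreated control), in diluted supernatant of YUMM5.2 eGFP cells, in diluted supernatant of YUMM5.2 Ifnb1eGFP cells, or in medium with recombinant IFNβ (rIFNβ). YUMM5.2 is a mouse melanoma line, here carrying a lentiviral vector whose tetracycline response promoter drives eGFP alone or Ifnb1 with eGFP. The donor tumor cells of both supernatants were treated with doxycycline (Dox) at 1 μg/mL for 72 hours, and both IFNβ conditions were set to 1500 pg/mL. The sample labels give no age or sex of the mice. Ifnb1eGFP against eGFP supernatant asks what tumoral IFNβ does to the BMDM, and rIFNβ against untreated control asks the same of the cytokine without tumor cell products. These 2 comparisons share no library.

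Libraries held 31526004 to 45348410 counts. The 7 interferon response genes used as a check (Irf7, Isg15, Ifit1, Ifit3, Mx1, Oas1a and Rsad2) had a summed level, in counts scaled to library size (CPM), of 8444 to 9433 CPM in the 6 IFNβ-exposed libraries and of 86.12 to 630.5 CPM in the 6 unexposed ones, the highest of which was an eGFP supernatant library. All 6 macrophage markers (Adgre1, Csf1r, Cd68, Itgam, Lyz2 and Mertk) were present in every condition, with a summed level of 14060 to 18390 CPM unexposed and 8512 to 9282 CPM exposed. Within that list Itgam (log2 fold change −1.99) and Lyz2 (−1.59) were lower with Ifnb1eGFP supernatant, while Adgre1 (0.21) and Cd68 (0.35) were among 3 markers that were higher. The 5 M2 markers (Mrc1, Arg1, Retnla, Chil3 and Mgl2) summed to 742.3 to 892.7 CPM untreated and 846.5 to 963.3 CPM with eGFP supernatant. Their sums were 1002 to 1022 CPM with Ifnb1eGFP supernatant and 828.3 to 960.9 CPM with rIFNβ. At the threshold given below, 1 of the 5 was higher and 0 lower in each IFNβ comparison. Summed markers of other cell types reached at most 1.194 CPM for B cells, 1.389 CPM for mast cells, 0.05931 CPM for erythroid cells, 0.8092 CPM for melanoma cells and 83.99 CPM for fibroblasts. Neutrophil markers fell from 4.28 to 5.72 CPM in the unexposed libraries to 0.2076 to 0.985 CPM in the exposed ones, and T cell markers, of which only Cd4 had more than 3 counts in a library, went from 3.75 to 5.05 CPM up to 8.057 to 9.953 CPM. The part of these shifts in the values below was not tested, and in bulk RNA fewer cells of a type and less RNA per cell cannot be told apart.

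With IFNβ, mRNA of respiratory chain subunits fell from both genomes. The mitochondrially encoded members fell most, and the nuclear members fell by smaller amounts. Between Ifnb1eGFP and eGFP supernatant 56 of the 96 members tested were lower and 5 higher, with a call made where the p from the quasi-likelihood test of edgeR, adjusted by Benjamini-Hochberg over 15033 genes (below, the edgeR adjusted p), did not exceed 0.05. Of all genes tested, 25% were lower and 30.1% higher in that comparison. The nuclear members had a median log2 fold change of −0.28, with 44 lower and 5 higher of 83, and the mitochondrial members a median of −1.43, with 12 lower and 0 higher of 13. The median of all genes was 0.03. The 3 libraries of either condition did not overlap for 51 members that were lower and 5 that were higher, against 26.6% and 32.4% of all genes tested.

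Between rIFNβ and untreated control 53 members were lower and 4 higher at the same threshold, against 24.6% lower and 30.7% higher among all genes tested. The median log2 fold change was −0.24 for the nuclear members (43 lower, 4 higher of 83) and −1.38 for the mitochondrial members (10 lower, 0 higher of 13), beside 0.04 for all genes. The libraries did not overlap for 69 members that were lower and 5 that were higher, against 29.7% and 36.4% of all genes tested. Set side by side, 51 members were lower in both comparisons, 4 were higher in both and 0 were called in opposite directions. No like count over all genes is given here, so this agreement is not shown to be particular to the members. Most of these changes were small: at the study's thresholds, a log2 fold change of 2 or more in size with an adjusted p no higher than 0.01, only mt-Co2 passed with Ifnb1eGFP supernatant (4.62% of all genes passed) and 0 members passed with rIFNβ (5.12% of all genes).

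**Figure D1:**
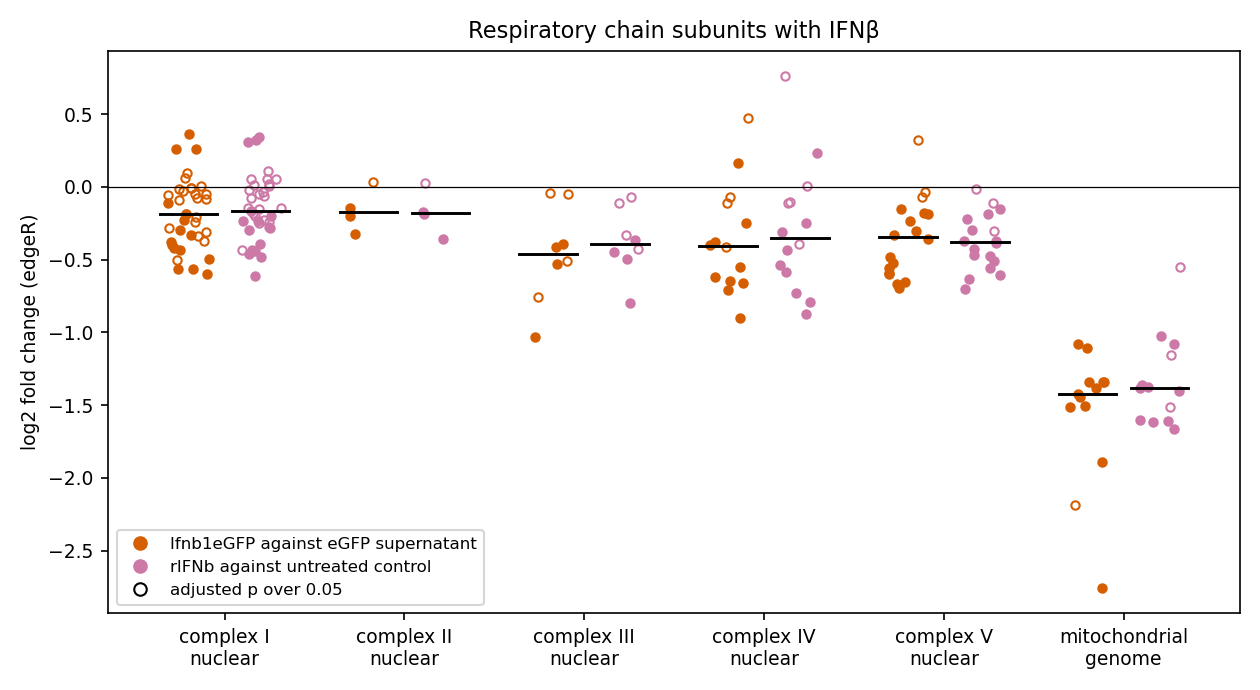
Log2 fold change (vertical axis, edgeR) of each respiratory chain subunit tested, by complex for nuclear genes and together for the mitochondrial genome. Orange is Ifnb1eGFP against eGFP supernatant, pink is rIFNβ against untreated control, open points have an adjusted p over 0.05, and bars are medians of the points shown; Cox5b-ps and the second gene named Atp5po, both near 0 counts, are left out. The mitochondrial group sits near a median of −1.4 in both comparisons, apart from the nuclear groups.

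The mitochondrial genome makes one long transcript from each strand, which is cut into the single mRNAs. Together the 13 mitochondrial protein genes took 1.10%, 1.14% and 1.16% of the counts in the untreated libraries and 1.22%, 1.13% and 1.46% with eGFP supernatant. With Ifnb1eGFP supernatant they took 0.564%, 0.431% and 0.635%, and with rIFNβ 0.464%, 0.450% and 0.550%. The means were 1.13% ± 0.0279, 1.27% ± 0.172, 0.543% ± 0.103 and 0.488% ± 0.0541 (SD, n = 3 each), and every IFNβ-exposed library lay below every unexposed one. The 90 nuclear members together took 0.671% ± 0.00583 of the counts in untreated control, 0.645% ± 0.00636 with eGFP supernatant, 0.518% ± 0.0202 with Ifnb1eGFP supernatant and 0.542% ± 0.00700 with rIFNβ (SD, n = 3 each). Here too the exposed and unexposed libraries did not overlap, with a smaller step than for the mitochondrial genes. The mitochondrial ribosomal RNAs, transcribed from the same genome, held 0.0313% ± 0.00135 of the counts in untreated control and 0.0326% ± 0.00319 with eGFP supernatant. They held 0.0192% ± 0.003835 with Ifnb1eGFP supernatant and 0.0181% ± 0.00200 with rIFNβ (SD, n = 3 each). These shares are far below those of the protein genes, and whether removal of ribosomal RNA in library preparation shaped them was not tested.

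**Figure D2:**
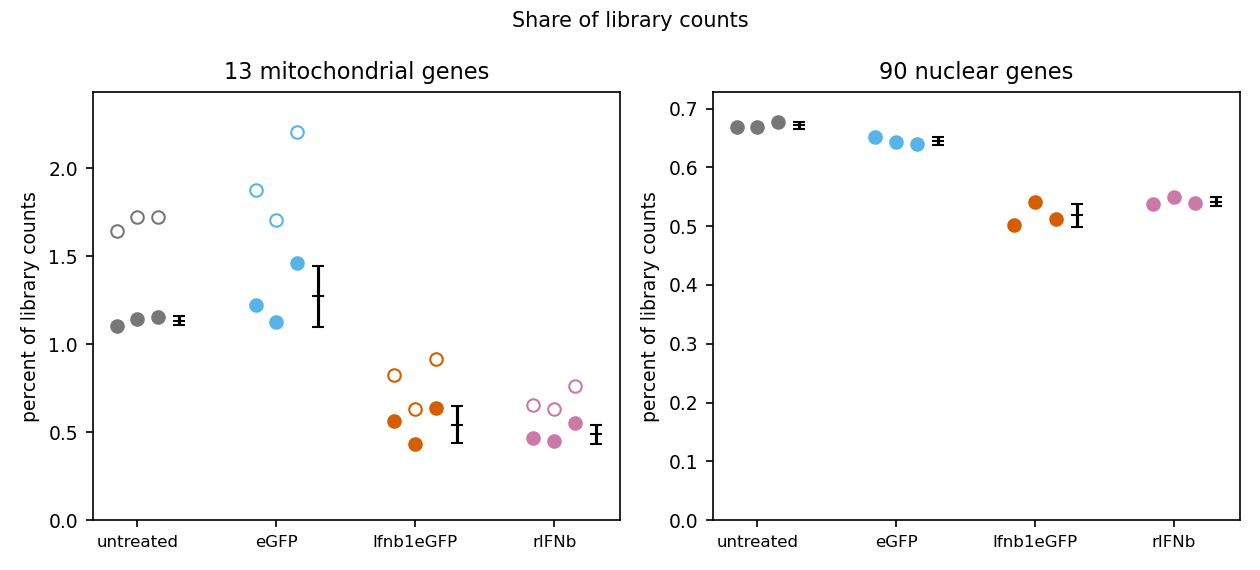
Share of library counts (percent, from 0) taken by the 13 mitochondrial protein genes (left) and the 90 nuclear subunit genes (right) in each library; filled points are the genes as deposited, open points add the nuclear copies of the mitochondrial genes, and the bars are the mean ± SD of 3 libraries. Both shares are lower in the 6 IFNβ-exposed libraries, and the left panel drops by more.

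Several mitochondrial genes have near-identical copies in the nuclear genome, and their values as deposited are uncertain for that reason. A stretch of chromosome 1 (GRCm39, positions 24650616 to 24655278) carries unprocessed pseudogenes that repeat the mitochondrial genome from mt-Co1 to mt-Nd4. RSEM, which divides reads that match several genes, gave the chromosome 1 copy most of the counts of the pair for mt-Co2 (99% to Gm28661), mt-Co3 (98.2% to Gm28437), mt-Atp6 (95.7% to Atp6-ps) and mt-Nd3 (82.5% to Gm28438). For mt-Nd4, mt-Nd4l and mt-Co1 the share of the copies was 9.32%, 4.94% and 3.59%. The first 61 bases of mt-Co2 and of Gm28661 are identical, as are all 681 bases compared (0 differences), and mt-Nd3 and Gm28438 are shown for the single difference in 345 bases, in capitals (T3C, counted from the first base of mt-Nd3). The sequences are the GENCODE M39 transcripts, 5′ to 3′:
mt-Co2: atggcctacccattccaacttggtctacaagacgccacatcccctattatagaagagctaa
Gm28661: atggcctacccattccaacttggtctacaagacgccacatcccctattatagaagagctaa
mt-Nd3: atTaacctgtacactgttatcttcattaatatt
Gm28438: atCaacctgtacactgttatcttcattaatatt

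mt-Co2 lies at M:7013-7696 and encodes the subunit of cytochrome c oxidase that takes electrons from cytochrome c. As deposited it was at 26.3, 5.27 and 11.96 CPM untreated, 19.5, 37.2 and 27.7 CPM with eGFP supernatant, 3.54, 6.08 and 2.82 CPM in Ifnb1eGFP supernatant and 3.77, 11.9 and 3.41 CPM with rIFNβ. Its log2 fold change was −2.75 with Ifnb1eGFP supernatant (SE 0.609, edgeR adjusted p = 0.0025) and −1.16 with rIFNβ (SE 0.587, edgeR adjusted p = 0.118). With rIFNβ it was called without the filter on low counts (−1.15, adjusted p = 0.048) and when untreated control replicate 2 or rIFNβ replicate 2 was left out (adjusted p = 0.0369 and 0.0199). The untreated and rIFNβ libraries overlapped, and levels within a condition varied widely. With the counts of the copies added to the member, an alternative chosen after seeing the data, mt-Co2 was at 1752, 1862 and 1842 CPM untreated, 2145, 1956 and 2535 CPM with eGFP supernatant, 903, 701 and 996 CPM in Ifnb1eGFP supernatant and 639.5, 625 and 759.7 CPM with rIFNβ. The log2 fold changes of these sums were −1.35 (SE 0.131, edgeR adjusted p = 4.33e-06) and −1.43 (SE 0.131, edgeR adjusted p = 2.59e-06), and the exposed and unexposed libraries no longer came near each other. The call at the study's thresholds is therefore not kept by the summed counts.

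mt-Co3, the third catalytic-core subunit of complex IV (M:8607-9390), showed the same split in a sharper form. It was at 17.7, 51.5 and 30.9 CPM untreated and 0, 56.1 and 57.1 CPM with eGFP supernatant. It was at 0, 14.6 and 10.1 CPM with Ifnb1eGFP supernatant and 0.0593, 14.5 and 20.0 CPM with rIFNβ, and it was not called in either comparison (edgeR adjusted p = 0.207 and 0.374). With its copy added it was at 1705, 1843 and 1793 CPM untreated, 2209, 1937 and 2192 CPM with eGFP supernatant, 779, 626 and 829 CPM in Ifnb1eGFP supernatant and 567, 550.3 and 620.4 CPM with rIFNβ. These sums fell in both comparisons, by 1.504 (edgeR adjusted p = 1.52e-07) and 1.62 (edgeR adjusted p = 7.50e-08) on the log2 scale. The library at 0 CPM in 2 conditions was replicate 1, and it stood among the others once the copy was added.

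mt-Atp6 (M:7927-8607), the proton-channel subunit of ATP synthase, was at 36.6, 54.8 and 84.2 CPM untreated, 51.1, 90.3 and 90.8 CPM with eGFP supernatant, 10.6, 16.9 and 53.5 CPM in Ifnb1eGFP supernatant and 29.98, 34.6 and 55.4 CPM with rIFNβ. Its groups overlapped, and its call with Ifnb1eGFP supernatant (log2 fold change −1.51, edgeR adjusted p = 0.0295) was lost when eGFP supernatant replicate 2 or 3 or Ifnb1eGFP supernatant replicate 1 or 2 was left out (adjusted p = 0.0753, 0.074, 0.0768 and 0.081) and when only the compared conditions were fitted (0.0686). Summed with Atp6-ps it was called in both comparisons (log2 fold change −1.38, edgeR adjusted p = 8.47e-07, and −1.40, edgeR adjusted p = 6.62e-07). mt-Nd3 (M:9459-9806), a small membrane subunit of complex I, was at 37.6, 28.8 and 24.0 CPM untreated, 39.1, 35.3 and 40.0 CPM with eGFP supernatant, 7.81, 10.7 and 12.1 CPM in Ifnb1eGFP supernatant and 11.2, 10.6 and 7.58 CPM with rIFNβ. It was called in both comparisons (−1.89 and −1.62), and the sum with Gm28438 gave −2.12 (edgeR adjusted p = 1.32e-08) and −2.31 (edgeR adjusted p = 6.28e-09).

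The other 9 mitochondrial members have few counts in copies or none, and all 9 fell in both comparisons with no overlap between the 3 exposed and the 3 unexposed libraries. mt-Co1 (M:5328-6872), the catalytic subunit of cytochrome c oxidase, had the highest level per kilobase of all members, 3467 CPM per kilobase of transcript in untreated control. It was at 5282, 5371 and 5417 CPM untreated, 5904, 5236 and 6469 CPM with eGFP supernatant, 2920, 2248 and 3161 CPM in Ifnb1eGFP supernatant and 2561, 2431 and 2892 CPM with rIFNβ. Its fall was the smallest of the 13 with Ifnb1eGFP supernatant, with a log2 fold change of −1.08 (SE 0.117, edgeR adjusted p = 1.15e-05), and −1.03 with rIFNβ (SE 0.117, edgeR adjusted p = 1.65e-05).

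mt-Cytb (M:14145-15288), cytochrome b and the mitochondrial core subunit of complex III, was at 1213, 1300 and 1318 CPM untreated and 1450, 1400 and 1808 CPM with eGFP supernatant. It was at 546, 449.9 and 645 CPM with Ifnb1eGFP supernatant and 391, 394 and 477 CPM with rIFNβ. The lowest unexposed library was thus well above the highest exposed one, and the log2 fold changes were −1.51 (SE 0.136, edgeR adjusted p = 2.52e-06) and −1.60 (SE 0.136, edgeR adjusted p = 1.42e-06).

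Of the complex I members, which form its proton-pumping arm, mt-Nd5 (M:11742-13565) was at 1244, 1271 and 1212 CPM untreated, 1311, 1252 and 1503 CPM with eGFP supernatant, 530.2, 394 and 569 CPM in Ifnb1eGFP supernatant and 390.2, 397 and 437 CPM with rIFNβ. It fell by 1.44 (SE 0.119) and 1.61 (SE 0.119) on the log2 scale (edgeR adjusted p = 1.17e-06 and 4.55e-07). mt-Nd6, which is encoded on the other strand and overlaps the end of mt-Nd5, was at 339, 361 and 335 CPM untreated and 97.4, 109 and 120.0 CPM with rIFNβ, a log2 fold change of −1.66 (edgeR adjusted p = 3.07e-06). With Ifnb1eGFP supernatant it was −1.43 (edgeR adjusted p = 1.08e-05), so the counts of genes on both strands fell. The libraries were stranded, but whether the counting used the strand is not given in the sources used here. If it did not, counts of mt-Nd6 could hold reads of the other strand, also outside the overlap. A fall of the mt-Nd6 transcript itself therefore cannot be stated with certainty. The remaining complex I members, with the Ifnb1eGFP supernatant value before the rIFNβ value, had log2 fold changes of −1.38 and −1.36 (mt-Nd1), −1.11 and −1.08 (mt-Nd2), −1.34 and −1.41 (mt-Nd4) and −1.34 and −1.38 (mt-Nd4l). mt-Atp8, the small subunit of ATP synthase whose gene overlaps mt-Atp6, had −1.34 and −1.38. These 5 genes had edgeR adjusted p values of at most 7.61e-05 in both comparisons.

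**Figure D3:**
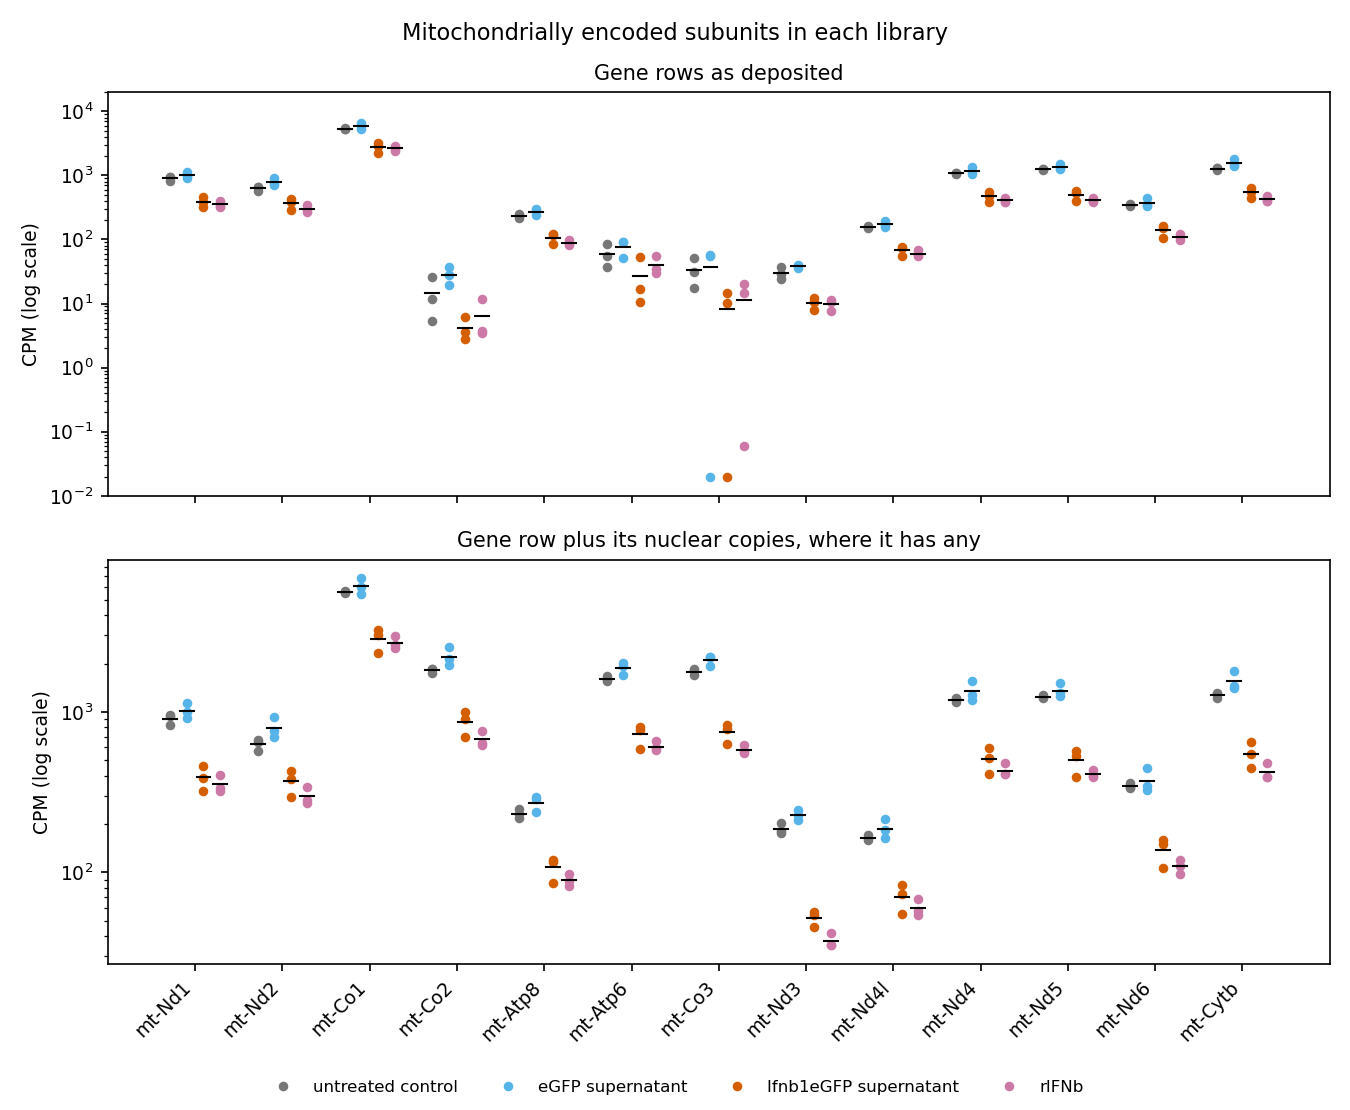
Level in CPM (log scale) of the 13 mitochondrially encoded subunits, in genome order, in each of the 12 libraries; points are libraries, colored by condition, short bars are condition means, and values of 0 are drawn at 0.02. The upper panel shows the genes as deposited, where mt-Co2, mt-Atp6, mt-Co3 and mt-Nd3 are low and scattered, and the lower panel adds the nuclear copies, where each gene is lower in all 6 IFNβ-exposed libraries.

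Among nuclear genes, complex V (ATP synthase) had the largest share of members lower, 15 of 19 tested in both comparisons, with 0 higher and median log2 fold changes of −0.33 and −0.37. Of all genes tested, 25% were lower and 30.1% higher with Ifnb1eGFP supernatant, and 24.6% and 30.7% with rIFNβ. Atp5f1a, the α subunit of the catalytic head (chromosome 18), was at 557, 569.8 and 569 CPM untreated, 549, 546 and 525 CPM with eGFP supernatant, 319, 359 and 339.8 CPM in Ifnb1eGFP supernatant and 345, 358 and 340.2 CPM with rIFNβ. The exposed and unexposed libraries lay far apart, with log2 fold changes of −0.67 (SE 0.0475, edgeR adjusted p = 3.47e-07) and −0.70 (SE 0.0475, edgeR adjusted p = 2.15e-07). Atp5f1b, the β subunit that pairs with it and carries the catalytic sites, was at 670.4, 665 and 651 CPM with eGFP supernatant, against 533, 528 and 521 CPM with Ifnb1eGFP supernatant. Its fall of 0.33 on the log2 scale (SE 0.0340, edgeR adjusted p = 7.79e-06) was smaller than that of its partner, and with rIFNβ it was 0.39. Atp5if1, the inhibitor protein that blocks the enzyme when it runs backward, was at 163, 165 and 152 CPM with eGFP supernatant, against 86.5, 114 and 95.8 CPM with Ifnb1eGFP supernatant, a log2 fold change of −0.69 (SE 0.0826, edgeR adjusted p = 2.51e-05), and had −0.63 with rIFNβ (edgeR adjusted p = 4.91e-05). Atp5f1d, the δ subunit of the rotor, was at 82.0, 87.0 and 65.3 CPM with eGFP supernatant, against 35.1, 68.2 and 45.7 CPM with Ifnb1eGFP supernatant, groups that overlap (log2 fold change −0.65, edgeR adjusted p = 0.0126). The call was lost when only the compared conditions were fitted (−0.66, adjusted p = 0.0579). With rIFNβ it had −0.51 (edgeR adjusted p = 0.0412), a call lost when any 1 of the 6 libraries was left out (adjusted p from 0.053 to 0.109). Atp5mc2, which encodes the same c-ring protein as Atp5mc1 and Atp5mc3, had 99.4% of the counts of its family in pseudogene copies and gives no usable value of its own. Copies also held 85.1% of the family counts of Ndufb4, 59.1% of Atp5mg, 37.9% of Ndufab1 and 20.3% of Atp5mc1. Summed with their copies, Atp5mg (−0.60 and −0.58) and Atp5mc1 (−0.57 and −0.46) were lower in both comparisons. The sums of Ndufb4 and Ndufab1 were not called in either.

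Complex IV, cytochrome c oxidase, had 9 lower and 2 higher of 15 members tested with Ifnb1eGFP supernatant and 8 lower and 1 higher with rIFNβ. The shares of all genes were 25% lower and 30.1% higher, and 24.6% and 30.7% with rIFNβ. Ndufa4, first named for complex I and now known as a subunit of cytochrome c oxidase, had the smallest adjusted p of all members in both comparisons. It was at 90.7, 90.5 and 90.9 CPM untreated, 88.0, 88.1 and 90.4 CPM with eGFP supernatant, 50.9, 43.8 and 48.0 CPM in Ifnb1eGFP supernatant and 50.1, 49.9 and 48.2 CPM with rIFNβ. Its level was thus close to constant within each condition, and it had log2 fold changes of −0.90 (SE 0.0502, edgeR adjusted p = 5.08e-08) and −0.88 (SE 0.0502, edgeR adjusted p = 5.51e-08). AA467197, also called Nmes1 and a paralog of Ndufa4 outside the symbol rule, moved the other way, from 0.869 ± 0.146 to 4.66 ± 0.657 CPM with Ifnb1eGFP supernatant (log2 fold change 2.36, edgeR adjusted p = 8.2e-07) and from 0.859 ± 0.145 to 3.39 ± 0.580 CPM with rIFNβ (log2 fold change 1.92, edgeR adjusted p = 4.8e-06; SD, n = 3 each). It remained far below Ndufa4 in CPM.

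Of the isoforms of complex IV, the broadly expressed forms carried nearly all counts. Cox4i1, the regulatory subunit at which ATP is known to act, was at 277, 284 and 259 CPM with eGFP supernatant, against 155, 199 and 169 CPM with Ifnb1eGFP supernatant, with log2 fold changes of −0.65 (edgeR adjusted p = 2.96e-05) and, with rIFNβ, −0.54 (edgeR adjusted p = 0.000124). The hypoxia-associated form Cox4i2 was not tested, with at most 0.0878 CPM in any library. Cox8a was at 116, 114 and 102 CPM with eGFP supernatant, against 57.1, 80.9 and 65.5 CPM with Ifnb1eGFP supernatant (−0.71, edgeR adjusted p = 0.000231, and −0.79 with rIFNβ, edgeR adjusted p = 9.36e-05). Its muscle and testis forms Cox8b and Cox8c were not tested, and Cox8c had no count. Cox7b was at 89.9, 90.3 and 87.5 CPM with eGFP supernatant, against 61.4, 52.2 and 56.1 CPM with Ifnb1eGFP supernatant (−0.66, edgeR adjusted p = 9.86e-07, and −0.73 with rIFNβ, edgeR adjusted p = 3.96e-07), while Cox7b2 was not tested. Cox7a2 fell by 0.40 and 0.44 on the log2 scale and Cox6b1 by 0.25 in both comparisons (edgeR adjusted p of at most 0.00016). Cox6a1 was at 95.1, 98.0 and 77.0 CPM with eGFP supernatant, against 46.9, 81.9 and 55.6 CPM with Ifnb1eGFP supernatant, overlapping groups with a log2 fold change of −0.55 (edgeR adjusted p = 0.0182) and, with rIFNβ, −0.39 (edgeR adjusted p = 0.0743). The call of Cox6a1 was lost without eGFP supernatant replicate 1 or 2 or Ifnb1eGFP supernatant replicate 3 (adjusted p = 0.0565, 0.062 and 0.0691) and with only the compared conditions (0.0631). With rIFNβ Cox6a1 was called with the replicate block (−0.41, adjusted p = 0.031), with RLE factors (0.0345), without the filter on low counts (0.0278), with DESeq2 (0.0134) and with only the compared conditions (0.00125). Its muscle form Cox6a2 was between 1.05 and 3.21 CPM in all libraries and was not called (0.47 and 0.76, edgeR adjusted p = 0.22 and 0.053), nor was Cox7a1 (−0.41 and 0.01), and Cox6b2 and Ndufa4l2 were not tested. Cox6a2 was called higher with rIFNβ under the replicate block (0.72, adjusted p = 0.0194), and also with library totals (0.0418), without the filter (0.0356), with only the compared conditions (0.0135) and without rIFNβ replicate 3 (0.0417). Cox5a and Cox5b, which have no tissue forms, were not called in either comparison (−0.07 and −0.11 for Cox5a, −0.11 and −0.11 for Cox5b). With rIFNβ Cox5a was called lower with RLE factors (adjusted p = 0.0221), with DESeq2 (0.0152), with only the compared conditions (0.0148) and without rIFNβ replicate 2 (0.0371), and Cox5b with only the compared conditions (0.0393).

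Cox7a2l, counted here with complex IV, rose in mRNA against the direction of its paralog Cox7a2. It was at 138, 146 and 144 CPM untreated, 142, 139 and 136 CPM with eGFP supernatant, 153, 159 and 154 CPM in Ifnb1eGFP supernatant and 165, 168 and 169 CPM with rIFNβ. The groups did not overlap in either comparison, and the rise was small (log2 fold change 0.16, SE 0.0375, edgeR adjusted p = 0.00331, and 0.23, SE 0.0375, edgeR adjusted p = 0.000277). Without the filter on low counts Cox7a2l was not called with Ifnb1eGFP supernatant (0.14, adjusted p = 0.0696). The largest rise of all by log2 fold change, 1.42 for Cox5b-ps (edgeR adjusted p = 0.0396), rests on levels under 0.8 CPM in a gene whose near-identical partner Cox5b holds 99.4% of the counts of the pair. The call was lost without eGFP supernatant replicate 2 or 3 or Ifnb1eGFP supernatant replicate 2 or 3 (adjusted p = 0.0877, 0.126, 0.16 and 0.0521) and with only the compared conditions (0.0554).

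Complex III, which passes electrons from ubiquinol to cytochrome c, had 4 of 8 nuclear members lower in both comparisons and 0 higher. These few members stand beside 25% of all genes lower with Ifnb1eGFP supernatant and 24.6% with rIFNβ, and 30.1% and 30.7% higher. Uqcrfs1, the Rieske iron-sulfur protein, was at 53.4, 55.7 and 55.9 CPM untreated, 56.6, 55.97 and 54.1 CPM with eGFP supernatant, 37.6, 38.8 and 38.99 CPM in Ifnb1eGFP supernatant and 39.6, 38.9 and 38.7 CPM with rIFNβ. It had tight replicates and log2 fold changes of −0.53 (SE 0.0377, edgeR adjusted p = 3.60e-07) and −0.49 (SE 0.0378, edgeR adjusted p = 5.90e-07). Uqcrc1, a core protein of the complex, had −0.41 (edgeR adjusted p = 0.00134) and −0.37 (edgeR adjusted p = 0.00266), while the other core protein, Uqcrc2 (−0.04 and −0.07), was not called. Uqcr11, a small subunit, had the largest fall of any nuclear member with Ifnb1eGFP supernatant, −1.03 (SE 0.263, edgeR adjusted p = 0.00596), and −0.80 with rIFNβ (SE 0.261, edgeR adjusted p = 0.0224). Its libraries varied widely: 50.6, 45.4 and 46.5 CPM untreated, 50.1, 48.0 and 34.0 CPM with eGFP supernatant, 13.5, 32.3 and 18.8 CPM in Ifnb1eGFP supernatant and 26.5, 32.7 and 22.8 CPM with rIFNβ. The groups did not overlap, but its call with rIFNβ was lost without untreated control replicate 1 or rIFNβ replicate 1 or 3 (adjusted p = 0.0597, 0.0635 and 0.0837).

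Complex I, the NADH dehydrogenase and entry point of most electrons, had the smallest share of nuclear members lower. With Ifnb1eGFP supernatant 13 of its 37 nuclear members tested were lower, 3 were higher and 21 were not called, and the same counts held with rIFNβ. That is 35.1% lower and 8.11% higher, beside 25% and 30.1% of all genes with Ifnb1eGFP supernatant and 24.6% and 30.7% with rIFNβ. Ndufs1, the largest subunit and part of the electron path, was at 92.0, 91.5 and 91.2 CPM untreated, 93.8, 89.9 and 94.3 CPM with eGFP supernatant, 65.4, 60.3 and 62.3 CPM in Ifnb1eGFP supernatant and 59.2, 58.3 and 61.9 CPM with rIFNβ. It fell by 0.56 (SE 0.0419, edgeR adjusted p = 5.18e-07) and 0.61 (SE 0.0421, edgeR adjusted p = 2.36e-07) on the log2 scale, with all exposed libraries below all unexposed ones. Ndufv3, an accessory subunit of the NADH-binding module, had −0.56 (edgeR adjusted p = 0.000147) and −0.48 (edgeR adjusted p = 0.00048), while Ndufv1, which binds NADH and is the site where electrons enter, was not called (−0.21 and −0.15, edgeR adjusted p = 0.0848 and 0.22). Ndufv1 was called lower with Ifnb1eGFP supernatant under RLE factors (−0.25, adjusted p = 0.0286) and DESeq2 (−0.25, adjusted p = 0.0191), and with rIFNβ when only the compared conditions were fitted (−0.18, adjusted p = 0.00508). Ndufa13, also known as GRIM-19 and described as interferon- and retinoic acid-induced in cell death, was at 103, 108 and 84.2 CPM with eGFP supernatant, against 46.8, 90.8 and 57.2 CPM with Ifnb1eGFP supernatant, overlapping groups with a log2 fold change of −0.60 (edgeR adjusted p = 0.0216). That call was lost without eGFP supernatant replicate 1 or 2 or Ifnb1eGFP supernatant replicate 3 (adjusted p = 0.0609, 0.0697 and 0.0806) and with only the compared conditions (0.076). With rIFNβ Ndufa13 had −0.43 and was not called (edgeR adjusted p = 0.079), but it was called with the replicate block (−0.45, adjusted p = 0.0374), with RLE factors (0.0405), without the filter (0.028), with DESeq2 (0.0154) and with only the compared conditions (0.000473).

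The 3 complex I members that rose did so in both comparisons. Ndufs3, a core subunit of the arm that hands electrons to ubiquinone, was at 48.7, 48.7 and 48.8 CPM untreated, 49.7, 46.8 and 45.5 CPM with eGFP supernatant, 62.0, 61.6 and 59.5 CPM in Ifnb1eGFP supernatant and 58.7, 64.4 and 59.9 CPM with rIFNβ. The log2 fold changes were 0.37 (SE 0.0466, edgeR adjusted p = 4.24e-05) and 0.32 (SE 0.0467, edgeR adjusted p = 0.000111), with no overlap. Ndufa5, an accessory subunit that sits on the same arm, had 0.26 (edgeR adjusted p = 0.00776) and 0.31 (edgeR adjusted p = 0.00325), and Ndufa12, another accessory subunit, 0.26 (edgeR adjusted p = 0.00455) and 0.34 (edgeR adjusted p = 0.000728). The call of Ndufa5 with Ifnb1eGFP supernatant was lost without Ifnb1eGFP supernatant replicate 1 (adjusted p = 0.0545).

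Complex II, succinate dehydrogenase, is the complex with no mitochondrially encoded subunit and a member of the citric acid cycle. Its changes were small, with 3 of 4 genes lower in both comparisons and median log2 fold changes of −0.17 and −0.18. Among all genes 25% and 24.6% were lower, and 4 genes are too few to set a share against these. Sdhc, a membrane anchor, was at 134, 136 and 140.0 CPM untreated, 129.8, 128 and 132 CPM with eGFP supernatant, 105, 102 and 104 CPM in Ifnb1eGFP supernatant and 107, 110.3 and 103 CPM with rIFNβ (−0.32, edgeR adjusted p = 1.93e-05, and −0.36, edgeR adjusted p = 8.39e-06). Sdha, the flavoprotein that oxidizes succinate, had −0.15 (edgeR adjusted p = 0.00306) and −0.19 (edgeR adjusted p = 0.00053), a step that is small but larger than the spread of its libraries. Sdhb, the iron-sulfur subunit, had −0.20 (edgeR adjusted p = 0.0205) and −0.17 (edgeR adjusted p = 0.0387), and Sdhd, the other membrane anchor, had 0.03 and 0.02 and was not called. Sdhb lost its call with Ifnb1eGFP supernatant without eGFP supernatant replicate 1 or 2 or Ifnb1eGFP supernatant replicate 3 (adjusted p = 0.0589, 0.0712 and 0.0687) or with only the compared conditions (0.077), and with rIFNβ without the filter (0.0609) or when any 1 of the 6 libraries was left out (adjusted p from 0.0515 to 0.129).

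**Figure D4:**
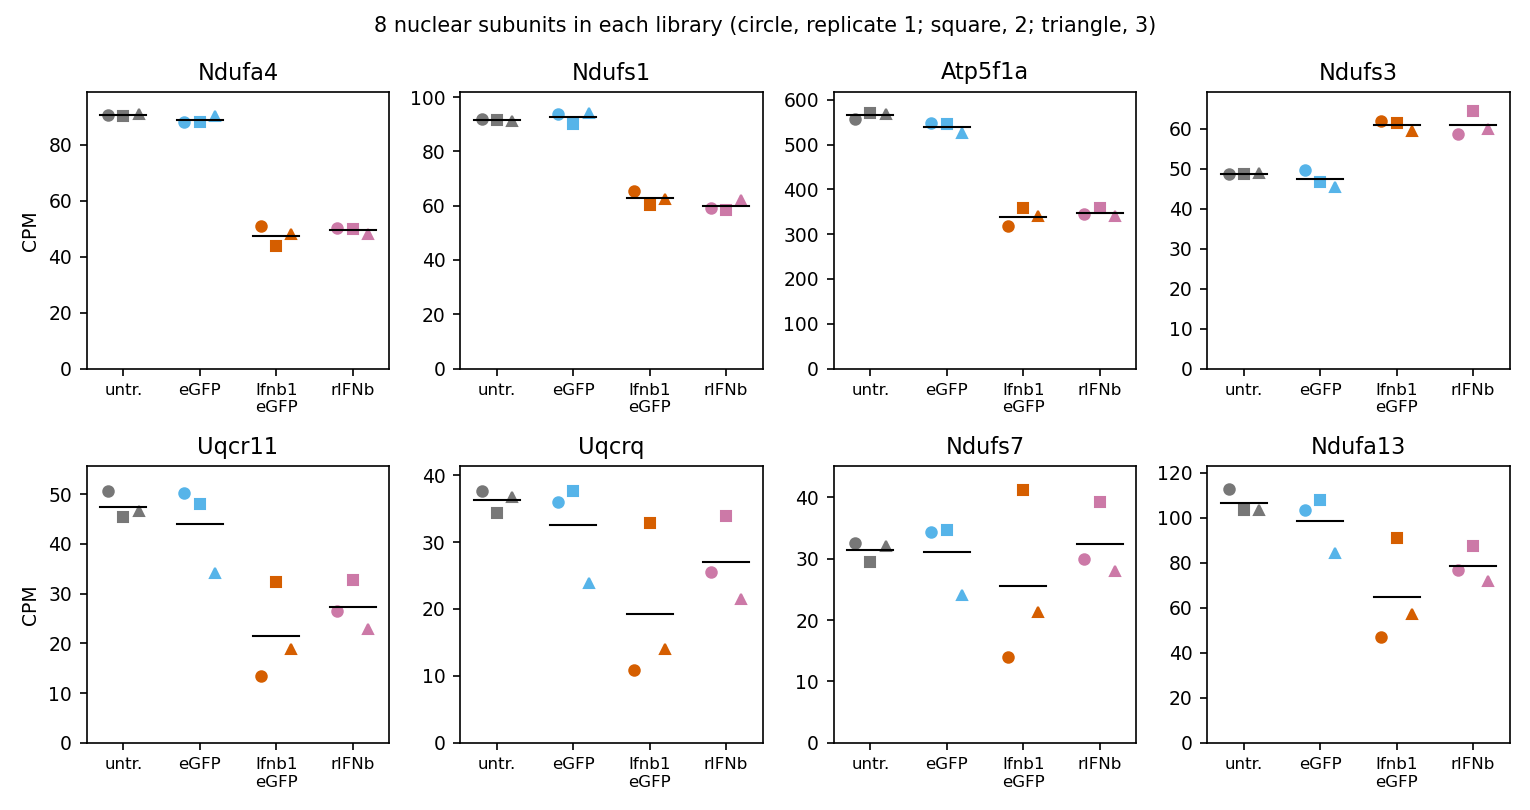
Level in CPM (vertical axis, from 0) of 8 nuclear subunits in each library, by condition; circles, squares and triangles are replicates 1, 2 and 3, and bars are condition means. Ndufa4, Ndufs1, Atp5f1a and Ndufs3 (upper row) differ little between replicates, whereas Uqcr11, Uqcrq, Ndufs7 and Ndufa13 (lower row) are high in replicate 2 of Ifnb1eGFP supernatant.

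A group of small nuclear subunits varied most between the libraries of Ifnb1eGFP supernatant. Among the 78 nuclear members with a mean of at least 3 CPM, the highest library was at least 1.5 times the lowest in 12 with Ifnb1eGFP supernatant, and in 1 each of the other 3 conditions. In all 12 (Atp5f1d, Cox6a1, Ndufa11, Ndufa13, Ndufa2, Ndufa7, Ndufb7, Ndufs7, Ndufs8, Uqcr10, Uqcr11 and Uqcrq) replicate 2 was the highest and replicate 1 the lowest. With eGFP supernatant replicate 2 was also the highest for all of them but Uqcr10 and Uqcr11, and with rIFNβ for all but Ndufa11. The spreads in those 2 conditions were smaller, at most 1.58 times. The main fit held no term for the replicate number. Among the 2 with the widest spread, chosen after their values were seen, Uqcrq, a small subunit of complex III, was at 10.8, 32.8 and 14.0 CPM, and Ndufs7, an iron-sulfur subunit of complex I, at 14.1, 41.2 and 21.3 CPM. Replicate 2 lay just below the untreated libraries for Uqcrq and above them for Ndufs7 (37.6, 34.4 and 36.7 CPM for Uqcrq, 32.5, 29.5 and 32.0 CPM for Ndufs7), and neither was called. Across the 78 members the deviation of a library from its condition mean had a Pearson r with the GC content of the transcript of −0.533, 0.495 and −0.124 for replicates 1, 2 and 3 of Ifnb1eGFP supernatant. In the other 3 conditions r ran from −0.439 (eGFP supernatant replicate 3) to 0.448 (eGFP supernatant replicate 2). For replicate 2 of the remaining conditions it was 0.346 with rIFNβ and −0.366 in untreated control. These are descriptions across genes of 1 library each, and the part of GC content in the levels was not tested. Without replicate 2 the supernatant comparison gave 66 members lower and 4 higher, against 27.7% lower and 28.9% higher among all genes tested, and Ndufv1 was called as well (log2 fold change −0.35, edgeR adjusted p = 0.000443).

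The supernatant itself was compared at matched IFNβ dose (Ifnb1eGFP supernatant against rIFNβ) and without added IFNβ (eGFP supernatant against untreated control). Between eGFP supernatant and untreated control the 7 interferon check genes had a median log2 fold change of 1.72, with 0 called. Their sums were 89 to 630.5 CPM with eGFP supernatant and 86.12 to 129 CPM untreated. The part of this difference in the values below was not tested. Both supernatants came from donor cells given Dox, and the conditions without supernatant had none. Tumor cell products and Dox carried over therefore cannot be told apart in these comparisons or in the pooled one below. In both, 0 of 96 members were called by edgeR and 0 by DESeq2, against 0.16% and 0.299% of all genes with edgeR. Before adjustment, p was below 0.05 for 5 and 4 members, against 8.57% and 8% of all genes. A p that misses the threshold does not show that levels were alike. Without IFNβ the log2 fold change was positive for 13 of 13 mitochondrial and 15 of 83 nuclear members, beside 7666 of 15033 genes. At matched dose it was positive for 10 of 13 and 22 of 83, beside 7407 of 15033 genes. The smallest adjusted p at matched dose was 0.513, for Cox7a2l (log2 fold change −0.11), followed by mt-Cytb (0.38), Uqcrb (0.15), mt-Nd5 (0.29) and mt-Nd6 (0.35). Without IFNβ the smallest was 0.599, for Ndufv2 (−0.10) and mt-Nd2 (0.34), followed by Cox5b-ps (−1.22), Ndufa10 (−0.11) and Ndufb8 (−0.13). The count at matched dose turned on 1 library: without Ifnb1eGFP supernatant replicate 2, 4 members were higher (mt-Cytb, mt-Nd5, mt-Nd6 and mt-Atp8, log2 fold changes 0.41 to 0.51) and 20 lower, among them Uqcrq (−1.11) and Ndufs7 (−0.87). Of all genes tested without that library, 1.27% were higher and 5.59% lower. Across the 78 nuclear members the fold changes had a Pearson r with GC content of −0.464 at matched dose, −0.341 between the conditions without IFNβ and −0.463 for supernatant pooled over both IFNβ states. It was −0.114 for Ifnb1eGFP against eGFP supernatant and 0.038 for rIFNβ against untreated control.

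The effect of supernatant pooled over both IFNβ states gave 0 calls, against 0.905% of all genes, with 7 members at an unadjusted p below 0.05 against 11.4% of all genes. The smallest adjusted p values were those of mt-Cytb (log2 fold change 0.33, edgeR adjusted p = 0.179), mt-Nd2 (0.32), Uqcrb (0.12), Cox7a2l (−0.08) and mt-Atp8 (0.25). mt-Cytb was called with DESeq2 (adjusted p = 0.0299), and 4 members were higher and 11 lower without Ifnb1eGFP supernatant replicate 2, against 1.43% and 2.03% of all genes tested. The interaction, a test of whether the IFNβ effect differed with and without supernatant, gave 0 calls with edgeR and with DESeq2 (0% of all genes with edgeR) and 1 member with an unadjusted p below 0.05 (4.4% of all genes), Ndufv2 (difference 0.18, edgeR adjusted p = 0.926). After it came Cox5b-ps (1.49), mt-Co2 (−1.60), Ndufa10 (0.11) and Atp5f1c (0.07).

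Lists of other genes that build or serve the chain held risers as well as fallers. Their counts stand beside 30.1% higher and 25% lower among all genes with Ifnb1eGFP supernatant, and 30.7% and 24.6% with rIFNβ, and a share near these is no result about a list. Of 78 mitochondrial ribosomal protein genes, which translate the mitochondrial mRNAs, 35 were higher and 8 lower with Ifnb1eGFP supernatant (median log2 fold change 0.14) and 36 and 8 with rIFNβ, led by Mrpl1 (1.00 and 0.96), Mrpl30 (0.68 and 0.71) and Mrps18c (0.88 and 0.84). Among 33 genes of mitochondrial DNA and RNA maintenance, 16 were higher and 4 lower (median 0.10), and 15 and 4 with rIFNβ. Pnpt1, a polynucleotide phosphorylase of the mitochondrion that is a known interferon-stimulated gene, stood at 24.5 ± 0.700 CPM with eGFP supernatant, against 68.0 ± 7.37 CPM with that of Ifnb1eGFP cells (SD, n = 3 each), and its rise was 1.47 on the log2 scale (edgeR adjusted p = 1.2e-08), and 1.54 with rIFNβ (edgeR adjusted p = 8.1e-09). Slirp, an RNA-stabilizing partner of Lrpprc, rose by 0.75 and 0.65, and Tfam, which packages and transcribes mitochondrial DNA, by 0.54 and 0.53.

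The assembly factors showed a mixture, and for complexes I, III and IV both directions were near or below those shares of all genes. Of 17 for complex I, 5 were higher and 1 lower in both comparisons (Foxred1 0.65 and 0.72, Ndufaf5 0.75 and 0.69, Ndufaf6 0.84 and 0.69). Of 22 for complex IV, 6 were higher and 1 lower with Ifnb1eGFP supernatant and 8 and 0 with rIFNβ (Coa5 0.84 and 0.82, Sco1 0.71 and 0.63, Surf1 0.60 and 0.55). For complex II, Sdhaf2 rose (0.41 and 0.37) and Sdhaf1 fell (−0.90 and −1.09), and the other 2 of 4 were not called (Sdhaf3 −0.22 and −0.16). For complex III, 2 of 9 were higher and 2 lower with Ifnb1eGFP supernatant and 3 and 1 with rIFNβ (Uqcc1 0.61 and 0.55, Bcs1l 0.29 and 0.50, and Uqcc5 −0.79 and −0.45, the last not called with rIFNβ). For complex V, 2 of 5 were higher and 1 lower with Ifnb1eGFP supernatant and 3 and 1 with rIFNβ (Tmem242 0.46 and 0.54, Fmc1 −0.91 and −0.81, Tmem70 0.32 and 0.24).

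Cycs, cytochrome c itself, carries electrons from complex III to IV and rose from 23.0 ± 2.07 to 43.1 ± 6.09 CPM with Ifnb1eGFP supernatant (SD, n = 3 each; log2 fold change 0.90, edgeR adjusted p = 2.6e-05) and by 0.77 with rIFNβ. It belongs to a list of 16 mobile carriers, ubiquinone synthesis genes and subunits under other symbols, of which 5 were higher and 0 lower with Ifnb1eGFP supernatant and 4 and 1 with rIFNβ. The share higher was again near that of all genes. Coq2 (0.75 and 0.76) and Coq5 (0.43 and 0.37), enzymes of ubiquinone synthesis, were the others with the smallest adjusted p. In contrast, of 11 supercomplex, uncoupling and superoxide genes 6 were lower and 1 higher with Ifnb1eGFP supernatant and 8 and 1 with rIFNβ. Higd2a, which takes part in supercomplex and complex IV assembly, fell from 36.2 ± 1.39 to 16.4 ± 3.41 CPM (SD, n = 3 each; −1.14 in both comparisons, edgeR adjusted p = 8.6e-06 in each), and the ADP/ATP carriers Slc25a5 and Slc25a4 fell by 0.51 and 0.56 on the log2 scale. Of 9 regulators of respiratory genes tested, 1 was higher and 2 lower with Ifnb1eGFP supernatant and 0 and 1 with rIFNβ: Myc (−1.43 and −1.34), Ppargc1b (−0.90, and −0.35 with rIFNβ, not called) and Gabpb2 (0.19, and 0.10 with rIFNβ, not called).

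**Figure D5:**
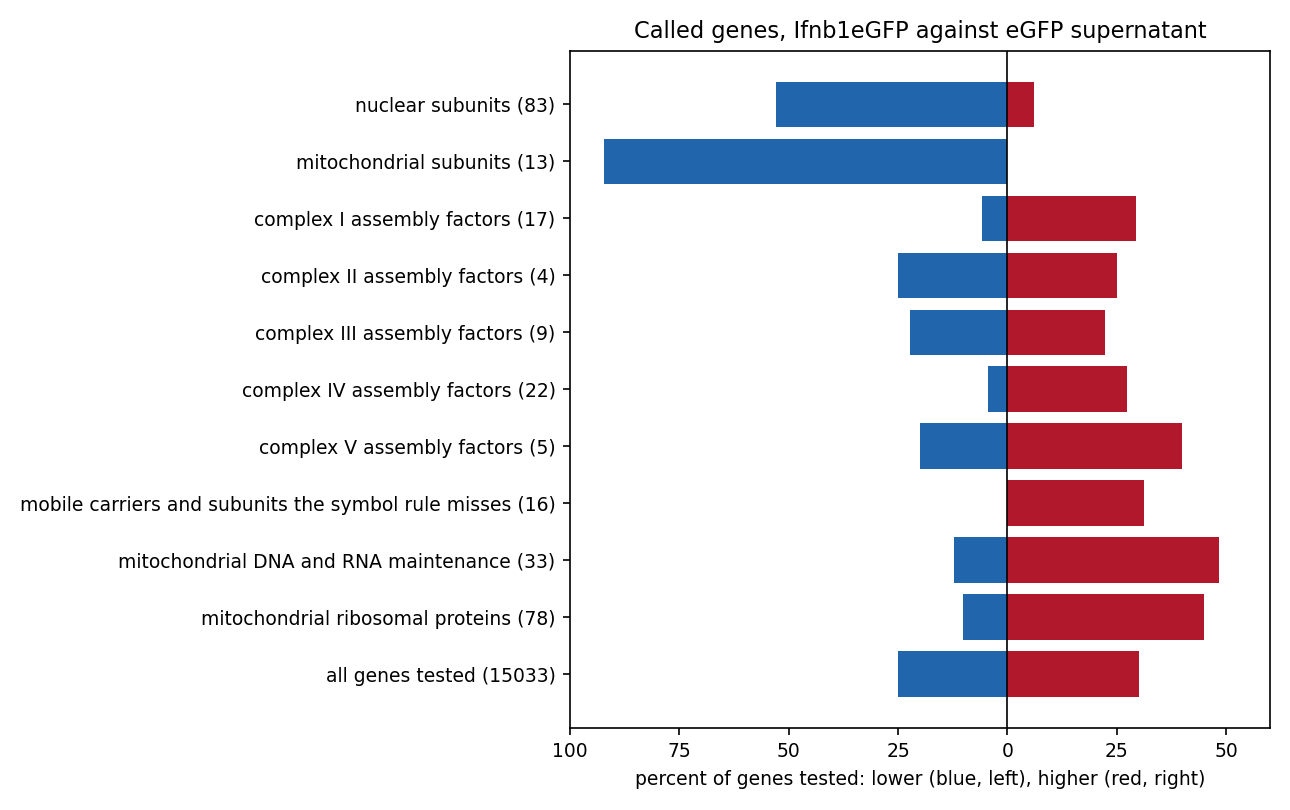
Percent of tested genes called lower (blue, left of 0) and higher (red, right of 0) by IFNβ in the supernatant comparison, for the subunits of both genomes, the other lists of the pathway and all 15033 genes, with the number tested in brackets. The subunits extend to the left (44 of 83 nuclear, 12 of 13 mitochondrial), and mitochondrial ribosomal proteins and genome maintenance to the right (35 of 78 and 16 of 33).

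The promoters of the nuclear members were read for motifs of the factors known to drive respiratory genes, NRF1 (GCGCANGCG), GABPA (its ETS site, CCGGAAGT) and YY1 (AANATGGCG), and for an interferon-stimulated response element (ISRE, GAAANNGAA), each on both strands of 250 bases before to 50 after the start. RefSeq promoters (GRCm38.p6) were found for 70 of the 90 nuclear members, which stand for 69 RefSeq genes. The NRF1 letters were in 29% of these 69 against 7.03% of all 27025 genes with a promoter, YY1 in 14.5% against 2.76%, GABPA in 7.25% against 4.31% and the ISRE in 10.1% against 9.76%. Among the 36 called lower with Ifnb1eGFP supernatant, the NRF1 letters were in 25% and the ISRE in 8.33%, and among the 26 tested and not called in 38.5% and 11.5%. Promoters are printed for Uqcr11, the nuclear member with the largest fall, and for Ndufs3, the called member with the largest rise that has an entry, with motif letters in capitals, as the 300 bases from 5′ to 3′ on the minus strand. Uqcr11 (chr10:80406772-80407071) holds GABPA and NRF1 letters, and Ndufs3 (chr2:90904672-90904971) ISRE and GABPA letters. A match is a description of the letters in this window and not a site shown to be bound.
Uqcr11: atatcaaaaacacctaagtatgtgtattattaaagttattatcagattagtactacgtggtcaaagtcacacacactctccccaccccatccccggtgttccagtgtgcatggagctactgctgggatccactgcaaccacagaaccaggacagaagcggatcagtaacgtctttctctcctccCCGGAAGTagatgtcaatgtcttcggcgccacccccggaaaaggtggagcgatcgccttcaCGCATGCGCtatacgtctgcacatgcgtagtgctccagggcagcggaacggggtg
Ndufs3: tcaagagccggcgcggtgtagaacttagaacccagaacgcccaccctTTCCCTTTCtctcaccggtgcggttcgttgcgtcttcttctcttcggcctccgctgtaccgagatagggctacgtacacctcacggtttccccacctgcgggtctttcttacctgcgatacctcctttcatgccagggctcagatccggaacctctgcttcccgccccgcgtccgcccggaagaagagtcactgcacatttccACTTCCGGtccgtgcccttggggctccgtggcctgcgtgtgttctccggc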

How the data were processed

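Bulk RNA of 12 BMDM libraries, 3 for each of 4 conditions, was prepared with the TruSeq Stranded Total RNA kit from 600 ng of RNA. The authors estimated expected counts per Ensembl gene with RSEM 1.3.3 and deposited them neither normalized nor filtered; the submitters' notes give the reference as GRCm39 and as mm10. Reads shared between near-identical genes are divided by RSEM, and 12% of values were not whole. Counts were rounded here. Gene ids were matched to GENCODE M39 (GRCm39, 56017 of 56748 ids).

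Testing used edgeR 4.0.16 (R 4.3.3): filterByExpr, TMM factors, 1 quasi-likelihood fit over the 12 libraries with condition as the only term, a prior count of 2 and Benjamini-Hochberg adjustment over 15033 genes. A gene was called at an adjusted p of at most 0.05. CPM used TMM-scaled library sizes, shares raw totals. Error values are SD, and SE is that of the log2 fold change. DESeq2 1.42.0 served as an alternative. On simulated counts for Ifnb1eGFP against eGFP supernatant (15033 genes), edgeR recovered 14.9% of genes changed by 0.3 on the log2 scale, 55.2% at 0.6 and 80.3% at 1.4. In that simulation 67, 67 and 66 genes were changed at these sizes, and 8 unchanged genes were called. Far more genes were called in the data, so these percents do not give the recovery of the members. Copies were found with BLAST 2.17.0 (identity of at least 95% over at least 50% of the member's transcript, or over at least 50% of the copy's with a minimum length). Percents of counts cover counting of reads, not molecules.

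Members with values were all mitochondrial members, the 3 largest called rises and falls of each nuclear complex with Ifnb1eGFP supernatant, tissue isoforms, core subunits, Atp5if1, the 5 smallest adjusted p of each other comparison, and the 3 smallest of each list. Uqcrc2, Uqcrq, Ndufs7, Ndufb4, Ndufab1, Atp5mg and the c-ring genes Atp5mc1 and Atp5mc2 were named after their values were seen. The members and lists were chosen with earlier results of these data known. 1 gene first placed in the interferon check list is not reported here. The alternatives were other scaling factors, no filter, DESeq2, the replicate block, only the compared conditions, whole counts only, the study's thresholds, each library left out, and, chosen after seeing the data, members summed with their copies.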

Additional observations from a re-analysis of the deposited data

How the results depend on the processing

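Between Ifnb1eGFP and eGFP supernatant, 61 members were called; the count was 70 with RLE factors and with DESeq2, 61 with library totals and with scaling on nuclear genes, 65 without the filter, 62 with members plus copies and 51 with only the compared conditions. With rIFNβ, 57 were called, and 51 to 74 under all alternatives that keep every member and the threshold. No called member was called in the opposite direction in any of these settings. At the study's thresholds 1 member was lower and 0 higher with Ifnb1eGFP supernatant, and 0 and 0 with rIFNβ. Among the 45 tested members with whole counts, 26 were lower and 1 higher, and 28 and 1 with rIFNβ; these counts are smaller because fewer members enter.

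Leaving out each library in turn gave 4 to 5 higher and 48 to 66 lower with Ifnb1eGFP supernatant, and 4 to 5 higher and 46 to 53 lower with rIFNβ. At matched dose it gave 0 to 4 higher and 0 to 20 lower, and for supernatant pooled over both IFNβ states 0 to 4 higher and 0 to 11 lower. The highest values of these last ranges came without Ifnb1eGFP supernatant replicate 2. In the pooled comparison 1 member was higher without the filter, with DESeq2 and with the replicate block (mt-Cytb in each) and with members plus copies (mt-Nd3); the cause was not tested. With copies added, the mitochondrial genes held 1.70% of counts in untreated control, 1.93% with eGFP supernatant, 0.790% with Ifnb1eGFP supernatant and 0.683% with rIFNβ.

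Signs turned only in comparisons where the member was not called. Cox7a1 with rIFNβ was at −0.038 with RLE factors, −0.040 with DESeq2, −0.025 with only the compared conditions, and −0.22 to 0.14 over the libraries left out. Over the libraries left out, Cox5b-ps with rIFNβ ranged from −0.34 to 0.39 and Cox6a2 with Ifnb1eGFP supernatant from −0.0033 to 0.65. The interaction of mt-Co2 was at 0.079 with copies added.

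With the replicate number as a block, 66 members were called with Ifnb1eGFP supernatant (61 lower, 5 higher) and 63 with rIFNβ (58 lower, 5 higher). Same-numbered libraries of different conditions had a mean correlation of deviations of 0.223 over 18 pairs (0.0137 to 0.407), 16 of them above 0.1, and all 12 libraries correlated best with a library of their own number, a hint from the data and not from the design, since the labels do not say what the numbers share. The 7 members that did not pass the filter on low counts were not tested.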
